A study of Mus musculus with 4 samples.

Results

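Erythroblasts rich in globin RNA were examined in bone marrow mononuclear cells of C57BL/6 mice. They were defined as cells in which Hba-a1, Hba-a2, Hbb-bs and Hbb-bt, the adult alpha and beta globin genes, together held at least 20% of the unique molecular identifiers (UMIs, 1 per captured transcript). The cells were thus chosen by their measured globin UMIs, and the contrast with other cells is given as a description. Of 39167 cells with 200 to 10000 detected genes and at most 10% mitochondrial UMIs, 1885 met this definition. The cells came from 2 mice without Toll-like receptor 9 (TLR9-/-) and 2 wild-type (WT) mice, with 1 library per mouse, and no treatment or age is given in the labels of these samples. For other assays the study's methods describe marrow flushed out of femur and tibia and spun on Ficoll. How the cells of these libraries were prepared is not described there. The marrow was profiled from the 5′ end of transcripts in 2 experiments with 1 mouse of each genotype in each, but the labels do not say whether library numbers 1 and 2 mark these experiments. The deletion was carried by every cell of the TLR9-/- mice, so that effects within erythroblasts and effects of other cells on them cannot be told apart. In WT library 2, 41.4% of the erythroblasts also held markers of other cell types, and the neutrophil, monocyte and B lineage results are given with and without those cells. Between 118 and 203 cell barcodes were shared by each pair of libraries, with at most 1 barcode an erythroblast in both. Values of the 4 libraries are given below in the order TLR9-/- 1, TLR9-/- 2, WT 1 and WT 2.

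Erythroblasts arise from committed progenitors under erythropoietin, divide a few times while they fill with haemoglobin, and then condense and expel the nucleus to become reticulocytes. Haemoglobin joins alpha chains, encoded on mouse chromosome 11, with beta chains, encoded on chromosome 7, and each chain holds a haem made in part in the mitochondria. As the cells mature, most other messenger RNAs are lost, mitochondria are cleared by mitophagy, and the membrane is built around band 3 and spectrin. TLR9 is a receptor for unmethylated CpG DNA in the endosomes of immune cells.

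The RNAs that define these cells come from 4 promoters, shown here because the balance of alpha and beta globin RNA differed between libraries in the data below. The 100 bases before each start site (RefSeq, GRCm38.p6) are printed 5′ to 3′ on the strand of the gene, with every match to the CCAAT box, the CACCC element, the TATAA box or the GATA motif on either strand in capitals.
Hba-a1, chr11:32283572-32283671, plus strand: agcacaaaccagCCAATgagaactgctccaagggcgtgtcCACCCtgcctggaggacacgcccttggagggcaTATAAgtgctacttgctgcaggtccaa
Hba-a2, chr11:32296392-32296491, plus strand: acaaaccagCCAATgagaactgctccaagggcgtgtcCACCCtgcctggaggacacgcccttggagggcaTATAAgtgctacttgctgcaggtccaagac
Hbb-bs, chr7:103827929-103828028, minus strand: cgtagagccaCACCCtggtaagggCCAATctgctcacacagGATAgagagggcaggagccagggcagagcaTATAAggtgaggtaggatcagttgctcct
Hbb-bt, chr7:103813924-103814023, minus strand: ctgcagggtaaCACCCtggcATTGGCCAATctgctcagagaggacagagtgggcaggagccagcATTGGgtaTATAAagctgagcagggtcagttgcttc
All 4 windows held a CCAAT box, a CACCC element and a TATAA box on the strand of the gene. Among 32851 promoter windows of this length, 18.9% held CCAAT, 27.2% CACCC, 10.2% TATAA and 25.04% GATA on either strand. GATA was matched before Hbb-bs, 59 bases upstream of the start, and in none of the other windows. The Hba-a1 and Hba-a2 windows were nearly the same sequence, with 97 identical positions in 103 alignment columns, whereas those of Hbb-bs and Hbb-bt had 77 in 102. Such matches describe the letters only. The longest annotated transcripts of Hba-a1 and Hba-a2 differed at 1 of 538 aligned bases and those of Hbb-bs and Hbb-bt at 45 of 626, with the longest identical run 430 bases. The counts of the alpha pair were therefore summed where a ratio was formed, and the division of UMIs within each pair is uncertain where a read fell in shared sequence.

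The cells carried the markers of erythroblasts. Slc4a1, which encodes band 3, the anion exchanger of the red cell membrane, was detected in 92.3%, 88.2%, 94.7% and 87.6% of the cells. Among cells outside the erythroid groups it was detected in 0.88%, 0.588%, 1.20% and 1.12%. The median depth of those cells was 2512, 3449, 1626 and 2114 UMIs, against 1780, 1079, 1793 and 1208 UMIs in the erythroblasts, which were the shallower cells except in WT 1. Car2, a carbonic anhydrase, was found in 96.8%, 95.3%, 96.2% and 91.7% of them. Blvrb, biliverdin reductase B, was found in 94.2%, 89.0%, 95.9% and 82.8%, but also in 23.6% to 29.4% of the cells outside the erythroid groups. The label thus rests on Slc4a1, Car2 and Blvrb, since Hba-a1 and Hbb-bs, the other listed markers, were in 100% of the cells by definition. The early erythroid progenitors described below carried Car2 in 98.2% to 98.6%, Blvrb in 94.9% to 98.1% and Slc4a1 in 54.2% to 71.4% of cells, so that Car2 and Blvrb mark erythroid cells but do not set the globin-rich ones apart from earlier ones. Tlr9 had 0 UMIs in the erythroblasts of TLR9-/- 1, TLR9-/- 2 and WT 2 and 1 UMI in WT 1, and a count of 0 allows up to 3.23, 16.5 and 9.89 UMIs per 1000000 UMIs in the 3 libraries without it. At this depth the loss of Tlr9 could not be checked in these cells. The other cells of the same libraries held 41, 48, 119 and 97 Tlr9 UMIs, where all cells of each library held 50204578, 63958243, 31210188 and 41384657 UMIs. Both TLR9-/- libraries thus had fewer Tlr9 UMIs at a greater depth than both WT libraries, and the source of those that remained was not tested.

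The group was scarce in the libraries numbered 2. It held 468, 127, 1121 and 169 cells, which was 4.34%, 1.42%, 10.6% and 1.90% of the cells of each library, with exact 95% binomial intervals of 3.96% to 4.74%, 1.19% to 1.69%, 10.0% to 11.2% and 1.63% to 2.21% that cover counting error only. On the log2 scale the TLR9-/- share was lower by 0.85 on average (−0.85), by 1.29 between the libraries numbered 1 and by 0.42 between those numbered 2 (−1.29 and −0.42). The ranges of the genotypes overlapped, and the two-sided exact permutation test gave p = 0.67, where 2 libraries against 2 cannot go below 0.33. Without WT library 1 the difference turned to 0.39, and with cells holding neutrophil genes left out of all libraries it was −0.73. Early erythroid progenitors were taken as cells outside the group with UMIs of at least 3 of 8 erythroid genes (Klf1, Car1, Gata1, Epor, Ermap, Rhd, Hemgn and Cldn13). They did not follow this pattern and numbered 432, 622, 548 and 667. There were thus 1.08, 0.204, 2.05 and 0.253 globin-rich erythroblasts per early progenitor. Detection of these genes depends on depth, and the medians of the early progenitors were 8800.5, 12907.5, 6205 and 10744 UMIs. The part of depth in these counts and ratios was not tested.

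**Figure D1:**
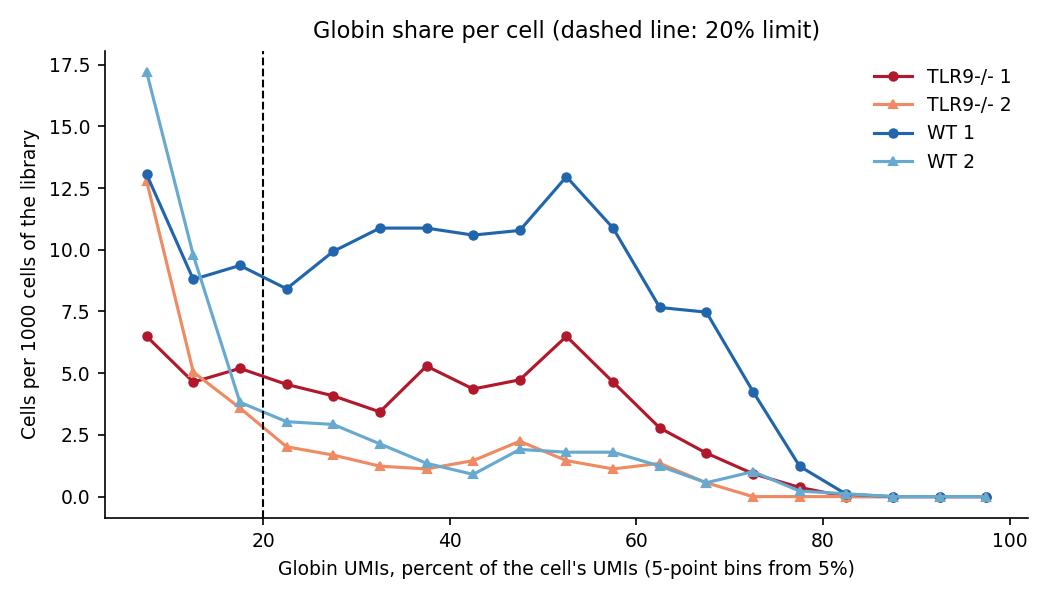
Cells per 1000 cells of each library (y axis) by the percentage of their UMIs on the 4 globin genes (x axis, bins of 5 points from 5% up; 1 line per library, dashed line at the limit of 20%). No gap separates the cells just below the limit from those just above it, and WT library 1 lies highest over most of the range.

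Globin held between 20% and 82.5% of the UMIs of a cell, with a median of 45.0%, 43.6%, 46.0% and 40.3%. Just inside the limit, between 20% and 25%, lay 49, 18, 89 and 27 cells, and 56, 32, 99 and 34 lay just outside, between 15% and 20%. With a limit of 10% the group would have held 5.32%, 2.29%, 12.4% and 3.26% of the cells. Mean globin shares of 44.3%, 42.5%, 46.0% and 42.6% overlapped between the genotypes, with a difference of −0.92 percentage points that is given without a test, since globin chose the cells. The share of the erythroblasts with at least 50% globin was 39.1%, 31.5%, 42.0% and 35.5%. It differed by −3.46 percentage points, or 0.0477 among cells with at least 1000 UMIs, again as a description. The median number of genes per cell, 518, 297, 536 and 342, was lower in the libraries numbered 2.

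Along the globin share, the erythroblasts differed in the number and the kind of their other transcripts. The cells were split at 40% and 60% globin, which gave 187, 54, 424 and 84 cells at 20% to 40%, 218, 56, 478 and 57 at 40% to 60%, and 63, 17, 218 and 27 at 60% to 80%. Since the same UMIs chose and ordered the cells, levels are given as non-globin CPM (UMIs per 1000000 non-globin UMIs) and are a description without a test. After thinning to 400 non-globin UMIs per cell, the median number of non-globin genes in the 3 bins was 284, 258 and 231.5 in TLR9-/- 1, 267.5, 222.5 and 186.5 in TLR9-/- 2, 288, 269 and 238.5 in WT 1, and 285, 244 and 223 in WT 2. Each library thus had fewer kinds of transcript where globin was high. Shallower cells were left out, which in the highest bin removed 19, 3, 76 and 8 cells. Unthinned and over all cells of a bin, the medians were 747, 426.5, 791 and 569 in the lowest bin and 256, 214, 247 and 242 in the highest. Transcripts of cytosolic ribosomal proteins, which every growing cell needs, made up 16.6%, 11.5%, 18.5% and 16.4% of the non-globin UMIs in the lowest bin and 6.73%, 7.30%, 5.27% and 8.54% in the highest.

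Genes of haem synthesis and of organelle clearance were highest where globin was highest. Alas2, the erythroid enzyme that starts haem synthesis, stood at 2327, 5473, 1871 and 2591 non-globin CPM in the lowest bin and 10461, 23815, 8306 and 13814 in the highest. Fech, which inserts iron into haem as the last step, had 1118, 1653, 843 and 901 against 3079, 6261, 2602 and 3171. Both enzymes were higher in the highest bin of all 4 libraries. Alad, an early cytosolic enzyme of the same pathway, went the other way, from 1658, 1778, 1336 and 1221 to 199, 0, 766 and 141. Bnip3l, a mitophagy receptor needed for the loss of mitochondria from reticulocytes, had 611, 1138, 643 and 688 in the lowest bin and 4270, 8274, 4418 and 5709 in the highest. Ube2l6, an enzyme that conjugates the ubiquitin-like protein ISG15, had 1216, 1591, 1036 and 781 against 6753, 8497, 5508 and 6695. Fam46c, a poly(A) polymerase, had 306, 1029, 329 and 525 against 3310, 7603, 3201 and 5497. The mitophagy, ubiquitin and nuclear extrusion list as a whole took 0.683%, 1.30%, 0.618% and 0.705% of the non-globin UMIs in the lowest bin and 3.74%, 4.65%, 3.52% and 4.0% in the highest.

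Bpgm and Gpx1 marked the same end of the range. Bpgm makes bisphosphoglycerate, which lowers the oxygen affinity of haemoglobin. It had 312, 1528, 359 and 568 non-globin CPM in the lowest bin and 7945, 18560, 5213 and 9373 in the highest. Gpx1, a glutathione peroxidase, had 23210, 30080, 17918 and 18752 against 73524, 67978, 72802 and 77948, and in the highest bin it lay within a narrow range in all 4 libraries. Erythroid transcription factors were split. Klf1, which drives adult beta globin, went from 842, 671, 591 and 426 to 397, 0, 275 and 0, and Gata1 from 283, 249, 211 and 199 to 99, 0, 118 and 0, whereas Nfe2 had 419, 624, 271 and 383 against 993, 447, 1031 and 705 and was lower in the highest bin of TLR9-/- 2 alone. Slc4a1 had 2863, 5848, 2542 and 3350 in the lowest bin and 6753, 4808, 7501 and 5779 in the highest, and was again lower at the top in TLR9-/- 2 alone, where the highest bin held 17 cells.

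**Figure D2:**
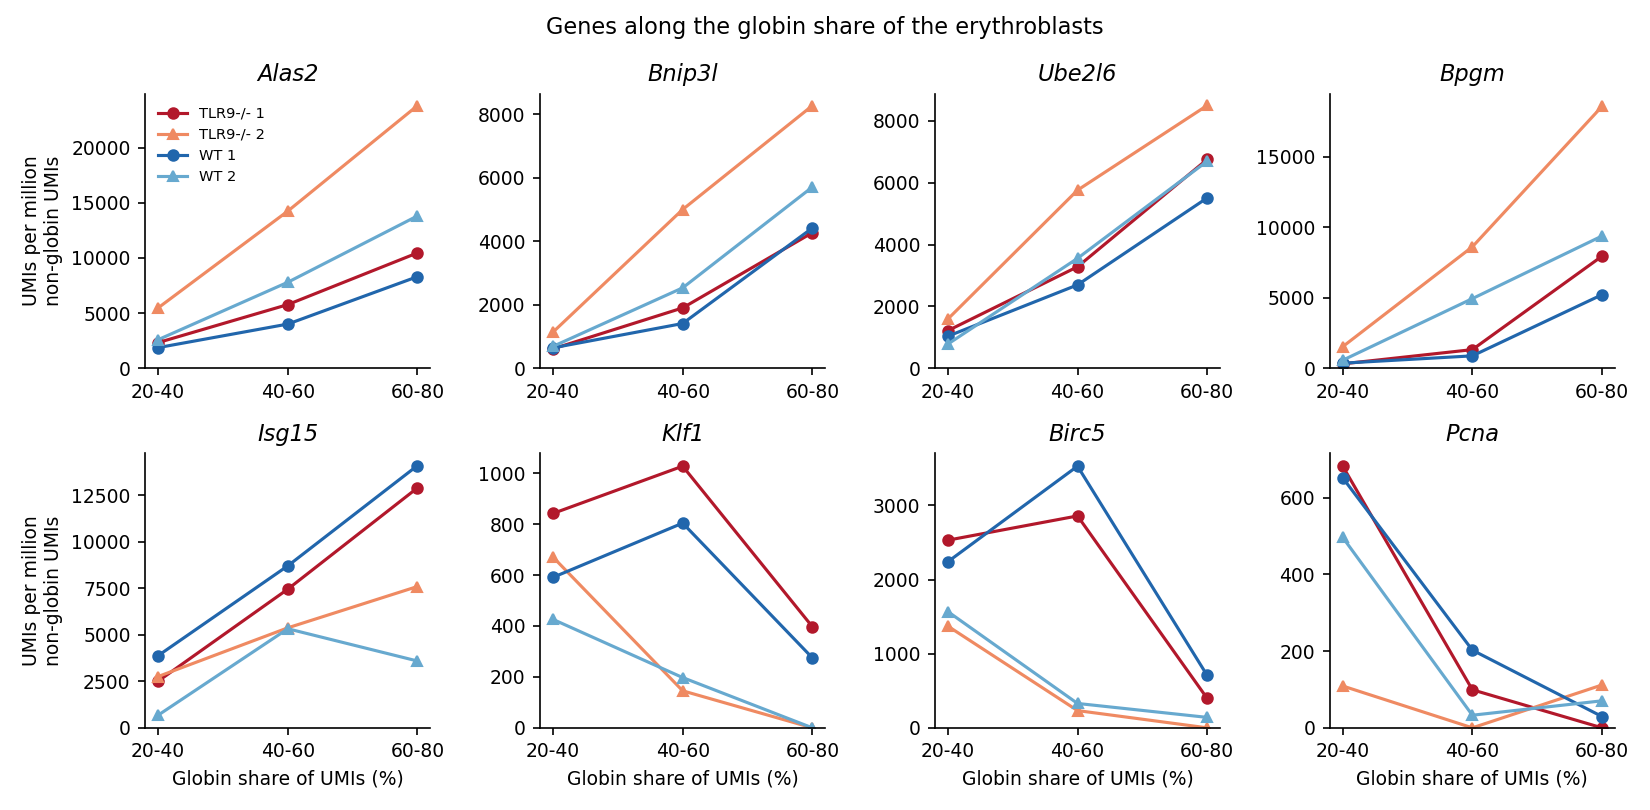
Non-globin CPM (y axes, from 0) of 8 genes in the erythroblasts with 20 to 40%, 40 to 60% and 60 to 80% globin (x axis), with 1 point per library and bin and no error bars. Alas2, Bnip3l, Ube2l6 and Bpgm are highest in the highest bin of all 4 libraries, Klf1 and Birc5 are higher in the lowest bin than in the highest in each, and Isg15 in WT 2 is lower in the last bin than in the middle one. Pcna is higher in the lowest bin in all but TLR9-/- 2 (109 and 112), where the highest bin of all 4 libraries held 5 Pcna UMIs.

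Of 23 listed interferon-stimulated genes, 3 were above 1000 non-globin CPM in the erythroblasts of every library and 13 were below 100 in every library. In all 4 libraries, 8 genes were higher in the erythroblasts than in both other classes and 8 were lower than in the cells of neither kind. The 3 abundant genes, chosen after their values were seen, are described first. Isg15, a ubiquitin-like modifier, had 4943, 4001, 6309 and 1671 non-globin CPM in the globin-rich erythroblasts, 120, 180, 385 and 96 in the early progenitors and 30, 37, 89 and 26 in cells of neither kind. Rsad2 (viperin, an antiviral enzyme) had 1298, 4960, 1222 and 1671 against 34, 25, 64 and 19 and 5, 6, 10 and 6. Isg20, an exonuclease, had 2466, 3518, 2313 and 2193 against 284, 418, 430 and 434 and 13, 16, 24 and 15. In all 4 libraries the globin-rich cells were highest and the cells of neither kind lowest for each of the 3 genes. Along the globin share, Isg15 went from 2512, 2760, 3883 and 681 in the lowest bin to 12910, 7603, 14109 and 3594 in the highest. Along the bins, 3 of the 23 genes were higher in the highest bin than in the lowest in all 4 libraries and 6 were lower. Ifitm3, which blocks the entry of viruses, had 528, 382, 909 and 446 in the erythroblasts and was among those lower than in the cells of neither kind, as was Ifi27l2a with 135, 261, 669 and 242. Ifi27l2a stood at 224, 390, 899 and 291 in the lowest bin and 33, 112, 167 and 211 in the highest.

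The balance of beta and alpha globin RNA differed by library number more than by genotype. The erythroblasts held 5.74, 1.41, 5.94 and 1.31 beta globin UMIs per alpha globin UMI, and the per-cell medians of 6.16, 1.41, 6.15 and 1.33 were close to these. The same order held in the early progenitors (4.87, 1.23, 4.95 and 1.12) and in the cells of neither kind (4.26, 1.38, 4.44 and 1.27). The libraries numbered 1 were thus high and those numbered 2 low in every class and in both genotypes. On edgeR's CPM scale (after TMM scaling, over all UMIs of the erythroblasts), Hba-a1 had 36676, 108100, 36234 and 95055 and Hba-a2 27285, 86467, 24458 and 69564, whereas Hbb-bs had 335820, 243000, 319040 and 177260. The genotype difference of the alpha genes was small beside this. It was 0.14 (standard error 0.54) for Hba-a1 and 0.27 (standard error 0.57) for Hba-a2 on the log2 scale, given without a test because both genes chose the cells.

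**Figure D3:**
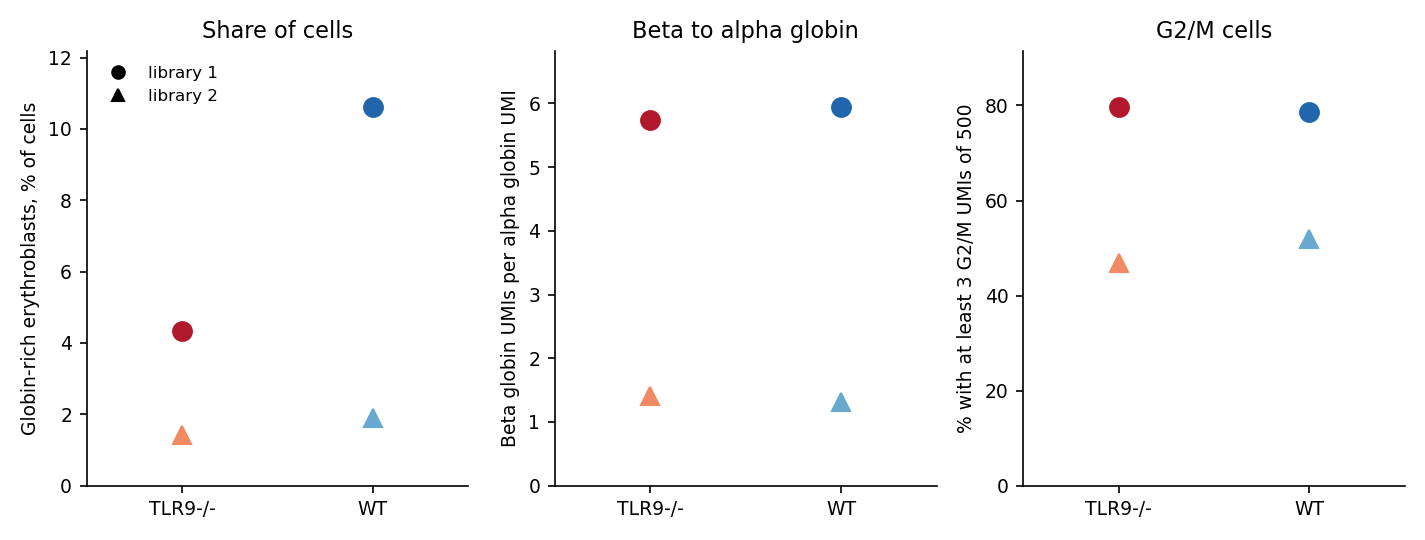
Share of cells that were globin-rich erythroblasts, beta globin UMIs per alpha globin UMI, and share of erythroblasts in G2/M (y axes, from 0) in TLR9-/- and WT mice (x axis); each point is 1 library, circles for number 1 and triangles for number 2, with no error bars. In all 3 panels the circles lie above the triangles of the same genotype.

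Other genes split by number in the same way. Of 3789 genes tested, 116 (3.06%) were higher by over 1 log2 unit in number 2 than in number 1 in both genotypes, and 64 (1.69%) were lower by as much in both. For comparison, 55 genes differed by over 1 log2 unit between the genotypes, in the same direction, in both numbers. Among the genes higher in number 2, Bpgm had 666, 3526, 519 and 1228 CPM, and Bcl2l1, which keeps late erythroblasts alive, had 164, 623, 126 and 353 CPM. Xpo7, a nuclear export receptor used in chromatin condensation of erythroblasts, had 749, 2903, 625 and 1709 non-globin CPM. Along the bins, Xpo7 was highest between 60% and 80% globin in number 1 (6290 and 4948) but between 40% and 60% in number 2 (7270 and 7370, against 1342 and 3383 above). The libraries numbered 2 held fewer and shallower erythroblasts, and the part of depth in these differences was not tested.

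The share of erythroblasts with several UMIs of mitotic genes was also lower in the libraries numbered 2. Late erythroblasts leave the cycle after their last divisions, and genes of G2 and mitosis were read as a list of 22. After thinning to 500 non-globin UMIs, 79.6%, 46.9%, 78.7% and 51.9% of the erythroblasts had at least 3 UMIs of the list, with exact 95% binomial intervals of 75.2% to 83.5%, 35.7% to 58.3%, 75.8% to 81.4% and 41.9% to 61.8%. Shallower cells were left out, which removed 86, 46, 257 and 65 cells. Without thinning the shares were 80.8%, 48.0%, 77.8% and 50.3%. Ube2c, the most abundant gene of the list, had 7783, 2268, 8273 and 2237 non-globin CPM at 40% to 60% globin. The share describes UMIs of the list and is no count of cells in G2 or mitosis. The genotype difference was −2.07 percentage points (two-sided exact permutation p = 1.00), with 0.877 between the libraries numbered 1 and −5.01 between those numbered 2. Birc5 (survivin, needed for chromosome segregation) had 2532, 1372, 2241 and 1569 non-globin CPM at 20% to 40% globin, 2859, 233, 3531 and 329 at 40% to 60%, and 397, 0, 707 and 141 at 60% to 80%. The whole list took 1.58%, 1.82%, 1.38% and 1.42% of the non-globin UMIs in the lowest bin, 2.56%, 0.457%, 2.54% and 0.595% in the middle one and 0.679%, 0.425%, 0.741% and 0.402% in the highest, so that the numbers differed most between 40% and 60% globin. Its members did not all follow this: 0 of the 22 genes were lower by over 1 log2 unit in number 2 in both genotypes, and Mki67, a marker of cycling cells, had 1663, 1815, 1551 and 1902 non-globin CPM over all erythroblasts. Pcna, the sliding clamp of DNA replication, had 683, 109, 652 and 497 in the lowest bin and 0, 112, 29 and 70 in the highest. TLR9-/- 2 was low in the lowest bin. The values of the highest bin rest on 5 Pcna UMIs over the 4 libraries and give no order.

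Within beta globin, the division between Hbb-bs and Hbb-bt was described in the same 3 classes, beginning with the early progenitors. They held 12.5, 11.3, 5.86 and 3.25 Hbb-bs UMIs per Hbb-bt UMI, so that both TLR9-/- libraries lay above both WT libraries. The log2 difference was 1.45, with 1.09 and 1.80 in the pairs of the same number, given as a description because both genes belong to the definition. In the globin-rich erythroblasts the ratio was 10.6, 7.68, 7.73 and 4.70, and the genotypes overlapped slightly. Here the log2 difference was 0.58 (0.46 and 0.71 in the pairs). Cells of neither kind had 10.6, 7.49, 7.61 and 4.56, close to the value of the erythroblasts of their own library in each case, and the part of free erythroblast RNA in those cells was not tested.

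The level of Hbb-bt in the erythroblasts was 31588, 31660, 41254 and 37751 CPM, with both TLR9-/- values below both WT values and a log2 difference of −0.32 (standard error 0.34). Over all other cells, the early progenitors included, Hbb-bt had 8454, 8346, 27158 and 28489 UMIs, and its log2 difference was −2.41 (standard error 0.22). In the early progenitors alone it was −2.01 (standard error 0.40). Because the definition bounds the globin share of the erythroblasts from below and that of the other cells from above, the smaller difference in the erythroblasts is no finding, and no test of these values is given.

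**Figure D4:**
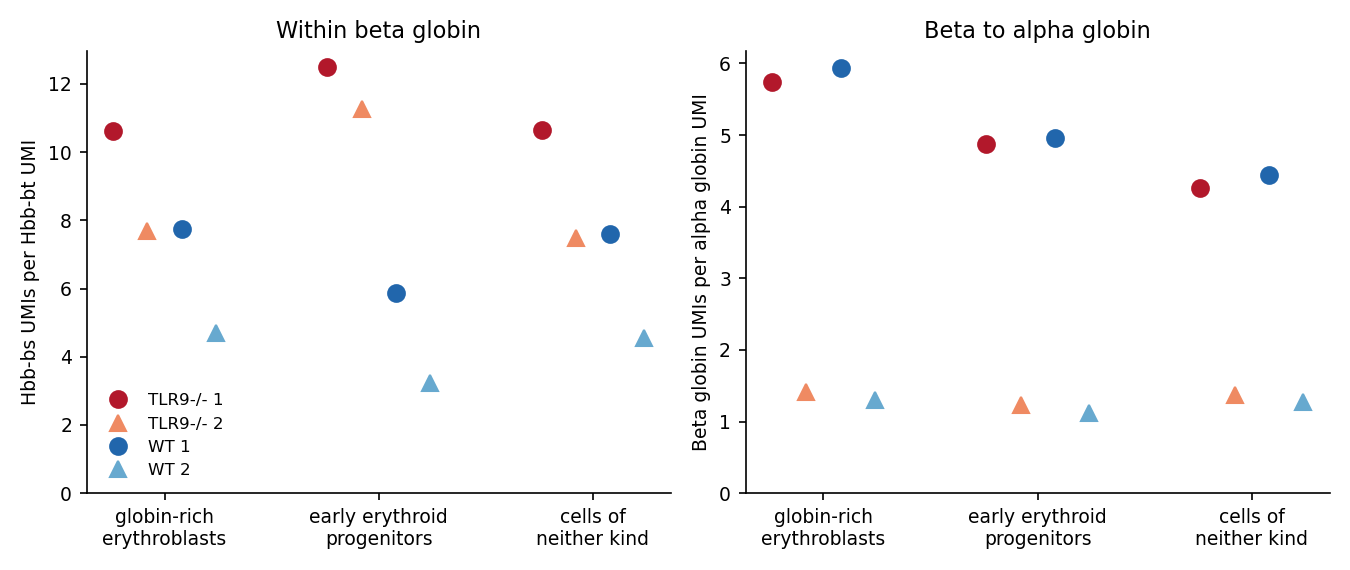
Hbb-bs UMIs per Hbb-bt UMI (left) and beta globin UMIs per alpha globin UMI (right) on the y axes, from 0, in 3 cell classes (x axis), with 1 point per library and no error bars. On the left the 2 TLR9-/- libraries lie above the 2 WT libraries in the early progenitors, and on the right the libraries numbered 1 (circles) lie above those numbered 2 (triangles) in every class.

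Between the genotypes, 2 of 3789 genes tested passed an adjusted p of 0.05 in the erythroblasts (0.0528% of genes, with 1 higher and 1 lower, 0.0264% each; edgeR's quasi-likelihood test on UMIs summed per library), and 111 genes (2.93%) had an unadjusted p under 0.05. Both called genes were present in 1 genotype only. Gm35082, a long noncoding RNA gene (ENSMUSG00000108866, chr7:100675088-100677760 of GRCm38, plus strand), had 128, 106, 0 and 0 UMIs (adjusted p = 0.00886 by edgeR). Against a floor of 3 UMIs over the WT erythroblasts, it was at least 182-fold higher in TLR9-/- erythroblasts. Gm16867, a predicted protein-coding gene (ENSMUSG00000093954, chr14:69363504-69503362, minus strand), had 0, 0, 466 and 141 UMIs (adjusted p = 0.00748 by edgeR) and was at least 86.8-fold lower in TLR9-/- against the same floor over the TLR9-/- erythroblasts. With 1 library left out, the bound was 21.3-fold (without WT 1) to 503-fold (without TLR9-/- 1) for Gm35082 and 14.2-fold (without TLR9-/- 1) to 172-fold (without WT 1) for Gm16867, values chosen after the data were seen. The fitted log2 fold changes of 11.49 and −11.22 depend on the prior count. The deletion of Tlr9 and other genetic differences between the mice of the 2 genotypes cannot be told apart here. Neither gene was particular to erythroblasts: over all other cells Gm35082 had 1150, 2017, 1 and 1 UMIs and Gm16867 had 1, 0, 507 and 850. Both calls were lost when the erythroblasts were limited to at least 40% globin (edgeR adjusted p = 0.308) or to at least 1000 UMIs (edgeR adjusted p = 0.188), and that of Gm35082 also without cells that held markers of other types (edgeR adjusted p = 0.0794).

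Genes of red cell function had 0 calls in either direction, and their medians were mostly above the median of all genes (−0.01 on the log2 scale). The 23 genes of the red cell membrane and skeleton had a median log2 fold change of 0.42, with 19 higher in TLR9-/- in both pairs of the same number and 1 lower in both, where 29% and 30% of all genes did so. Slc4a1 had 2531, 4401, 2231 and 2656 CPM, a log2 difference of 0.50 (standard error 0.41). Cd24a, a small surface glycoprotein, had 5920, 5277, 3999 and 2650 CPM with 0.75 (standard error 0.39) and no overlap of the genotypes, as was the case, in the same direction, for 15.9% of all genes (17.3% in the opposite direction). The 11 genes of haem synthesis had a median of 0.47 (8 higher in both pairs, 1 lower). Among them Alas2 had 2428, 6637, 1757 and 2634 CPM (log2 fold change 1.04, standard error 0.50). The 19 genes of mitophagy, ubiquitin and nuclear extrusion had a median of 0.73 that lay mostly between the libraries numbered 2 (1.00 there and 0.24 between those numbered 1). Ube2l6 had 1371, 2368, 1104 and 1043 CPM (0.80, standard error 0.42) and Gabarapl2, an autophagosome protein, 1051, 1965, 851 and 884 CPM (0.79, standard error 0.43). Each of these 5 genes had an adjusted p of 1.00 by edgeR.

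The globins of the definition aside, the remaining erythroid lists also had 0 calls, and each gene named from them had an adjusted p of 1.00 by edgeR. The globins of the definition, given without a test, had a median of 0.18, with Hbb-bs at 0.22. Iron uptake and storage had a median log2 fold change of 0.28 over 11 genes tested, in which Fth1 and Ftl1, the ferritin chains, gave 0.29 (standard error 0.37) and 0.34 (standard error 0.38). Haem breakdown and haem sensing had a median of 0.29 over 5 genes, with Blvrb at 3906, 3980, 3382 and 3061 CPM (0.29, standard error 0.37) and Eif2ak1, the haem-regulated kinase of translation, at 0.53 (standard error 0.44). Erythroid transcription factors had a median of 0.19 over 15 genes, with Hemgn at 0.17 (standard error 0.48) and E2f2, which acts in terminal cell cycle exit, at 0.28 (standard error 0.52). The other globins in the list, the theta-like genes Hbq1b and Hbq1a, gave −0.05 and −0.15. Antioxidant enzymes had a median of 0.35 over 9 genes, in which Gpx1 had 21931, 30407, 16738 and 17706 CPM (0.60, standard error 0.36) and Prdx2, a peroxiredoxin, gave 0.35 (standard error 0.38). The 2 carbonic anhydrases (median −0.12) lay on opposite sides. Car2 had 4717, 5535, 3078 and 3845 CPM (0.57, standard error 0.38), and Car1, which is high in progenitors, had 123, 31.5, 143 and 162 CPM (−0.81, standard error 0.53). Glycolysis had a median of −0.28 over 9 genes, with Bpgm at 1.26 (standard error 0.67) and Hk1, a hexokinase, at −0.58 (standard error 0.46).

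Cycle and stress lists again had 0 calls. The 15 S phase genes, 14 of them negative, had a median of −0.56, which was −0.05 between the libraries numbered 1 and −2.0 between those numbered 2. Rrm2, a subunit of ribonucleotide reductase, had 392, 88.2, 412 and 360 CPM, so that TLR9-/- 2 was low and the other libraries alike, and Pcna showed the same with 254, 50.4, 256 and 233 CPM. The 22 G2/M genes had a median of 0.16, with Ube2c, an enzyme of mitotic exit, at 0.29 (standard error 0.39) and Birc5 at −0.05 (standard error 0.51). Interferon-stimulated genes had a median of 0.06 over 16 genes tested, with Isg15 at 2949, 2708, 3581 and 1007 CPM (0.30, standard error 0.53) and Isg20 at 0.54 (standard error 0.41). Rtp4, a receptor transporter of this list, was chosen after its values were seen, and it had 7.74, 6.30, 48.9 and 22.7 CPM and −2.38 (standard error 0.63, edgeR adjusted p = 0.924). With the library number as a replicate block, a pairing that is not established, Rtp4 was called. Heat-shock chaperones had a median of 0.58 over 7 genes, all of them positive, with 1.09 and −0.37 in the pairs. Hsp90ab1 had 339, 271, 158 and 253 CPM and Hsp90aa1 538, 126, 165 and 178 CPM, where TLR9-/- 1 stood apart. Early response genes had a median of −0.16 over 8 genes, with Jund at 0.05 and Klf2 at −0.49. Genes of early progenitors had −0.43 over 5 genes, with Vamp5 at 0.34.

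**Figure D5:**
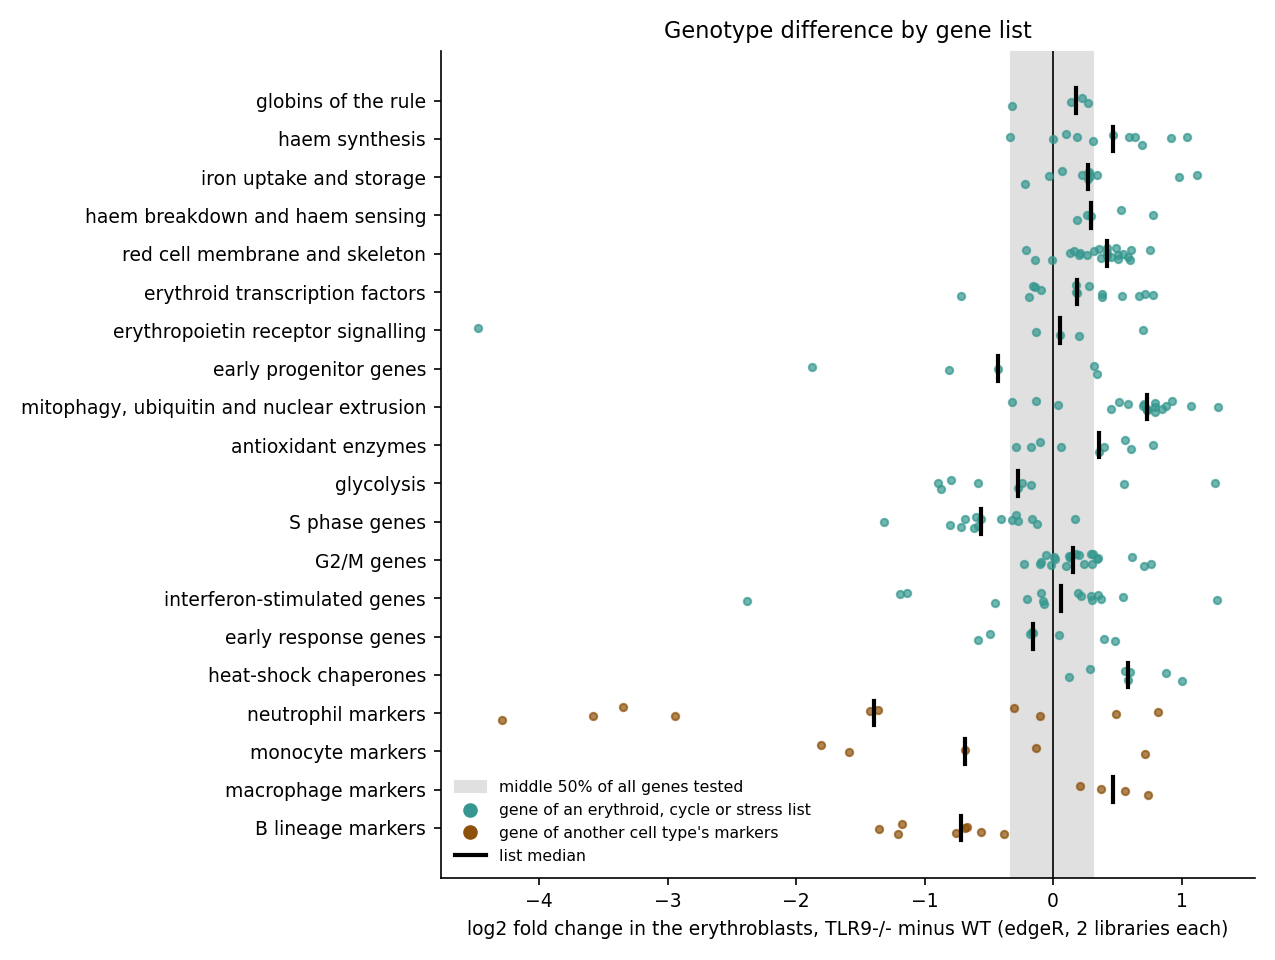
Log2 fold change in the erythroblasts, TLR9-/- minus WT (x axis), of the tested genes of each list with at least 4 of them (y axis); points are genes, black bars list medians, and the grey band the middle 50% of all genes tested. No listed gene passed the test, and the neutrophil and B lineage markers have the lowest medians, −1.39 and −0.72.

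Signalling through the erythropoietin receptor, the survival and growth signal of these cells, had a median of 0.05 over 5 genes tested and 0 calls. Bcl2l1, one of its targets, gave 0.70 (standard error 0.65), and Pim1, a kinase induced by STAT5, −0.13 (standard error 0.54). Cish, a feedback inhibitor of the receptor that STAT5 also induces, had 1.11, 0, 22.5 and 25.9 CPM. Its log2 fold change was −4.48 (standard error 1.05) with an adjusted p of 0.518 by edgeR and no overlap of the genotypes, and the gene was named after its values were seen. With the library number as a replicate block, a pairing that is not established, Cish was called. Cish lies 1.07 megabases from Tlr9. Of 39 tested genes within 5 megabases, 0 were called. An unadjusted p under 0.05 by edgeR was reached by 7 of them (17.9%, against 2.93% of all genes), Cish itself and the neutrophil genes Camp, Ngp and Ltf included. These genes were looked at after the values of Cish were seen, so the 17.9% is a description only. The parts of the deleted locus and of cells with neutrophil markers in it were not tested. Of the 3 genes listed for TLR9 and its adaptors (Tlr9, Myd88 and Unc93b1), only Unc93b1, which carries TLR9 to the endosome, had enough UMIs to be tested (31.0, 50.4, 51.0 and 38.9 CPM, log2 fold change −0.32). Other genes of the pathway were not listed.

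Glrx stood out in the comparison of the genotype effect between the erythroblasts and all other cells. It encodes glutaredoxin, which reduces proteins bound to glutathione, and was named after its values were seen. The erythroblasts held 58, 45, 18 and 8 Glrx UMIs, or 64.2, 283, 7.78 and 25.9 CPM, and both TLR9-/- libraries lay above both WT libraries. The log2 fold change in the erythroblasts was 3.63 (standard error 0.81), with 2.74 and 3.35 in the pairs, but the adjusted p was 0.509 by edgeR. With the library number as a replicate block, a pairing that is not established, Glrx was called between the genotypes. The log2 fold change was 0.05 (standard error 0.25) in the early progenitors and 0.31 (standard error 0.18) over all other cells. The difference of the effects from that in all other cells was 2.95 (standard error 0.56, edgeR adjusted p = 0.000284), and from that in the early progenitors 3.36 (edgeR adjusted p = 0.000202). This call was kept without cells that held markers of other types (3.37, edgeR adjusted p = 0.00105) and lost without WT replicate 1 (2.07, edgeR adjusted p = 1.00) or WT replicate 2 (3.44, edgeR adjusted p = 0.440), and DESeq2 gave 3.02 with no adjusted p. In all, 16 of 12900 genes (0.124%) were called in this comparison, 5 with a more positive effect in the erythroblasts and 11 with a more negative one. Immunoglobulin variable genes made up 6 of them, and neutrophil or monocyte markers 5.

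Markers of other cell types were present in the erythroblasts, most of all in WT library 2. A cell was counted as mixed where over 1% of its non-globin UMIs fell on 50 markers of 7 other types, which applied to 8.55%, 14.2%, 11.2% and 41.4% of the erythroblasts. The 10 neutrophil markers, led by S100a9, took 0.415%, 0.935%, 0.611% and 3.84% of the non-globin UMIs, and all 10 were detected in each library. In all other cells, the early progenitors included, they took 6.42%, 8.66%, 5.51% and 9.70%. S100a9 had 1012, 2834, 1417 and 8419 CPM and S100a8 938, 2204, 1411 and 6984 CPM. Camp, a neutrophil granule protein, had 70, 23, 510 and 1218 UMIs, and its genotype effect differed from that in all other cells by −3.20 (standard error 0.49, edgeR adjusted p = 1.35e-06). Without the mixed cells this was 0.34 (edgeR adjusted p = 1.00), and without WT replicate 2 it was −1.79 (edgeR adjusted p = 1.00). The neutrophil list had a median log2 fold change of −1.39 between the genotypes over 10 genes tested, with 0 calls. Over the 7 of them also tested without the mixed cells, which these markers helped to choose, it was −1.42 with and 0.17 without those cells. Monocyte markers, led by Lyz2, took 0.0495%, 0.0605%, 0.0727% and 0.206%, with Ccr2 and Ms4a6c at 0 in TLR9-/- 2 (median −0.69 over 5 genes; Lyz2 −1.59, or 0.21 without the mixed cells, and Ly6c2 −0.69). Over the 2 monocyte markers tested in both fits the median was −1.14 with and −0.17 without the mixed cells. Markers of B lineage took 0.0977%, 0.142%, 0.217% and 0.227% with Vpreb3, Cd79a or Ighm most abundant (median −0.72 over 8 genes; Vpreb3 −1.21 and Cd79a −0.38), and over 6 genes the median was −0.71 with and −0.64 without the mixed cells. Without these cells the medians were 0.36 for the membrane, 0.52 for haem synthesis, 0.89 for mitophagy and −0.68 for S phase, whereas the early progenitor genes went from −0.055 to 0.43 over the 4 genes tested in both. These medians were added after the data were seen.

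Of the 7 lists of other types, only the macrophage markers were more abundant in the erythroblasts than in all other cells, the early progenitors included, in every library. In the marrow, late erythroblasts mature around a central macrophage that takes up expelled nuclei. The 6 markers took 0.0145%, 0.0549%, 0.0206% and 0.0279% of the non-globin UMIs in the erythroblasts and 0.00363%, 0.00465%, 0.00677% and 0.00467% in all other cells. All 6 were detected in the erythroblasts of each library, led by C1qa, C1qb or Vcam1. The C1q genes were at 109, 326, 139 and 145 non-globin CPM in the erythroblasts, 17.2, 10.7, 32.5 and 11.2 in the early progenitors and 15.4, 17.4, 40.9 and 16.1 in the cells of neither kind. They were found in 6.20%, 9.45%, 8.03% and 8.28% of the erythroblasts and in 2.47%, 4.59%, 4.11% and 3.39% of the cells of neither kind. In the early progenitors, which were the deepest cells (medians of 8800.5, 12907.5, 6205 and 10744 UMIs), the share was 9.72%, 8.84%, 13.5% and 7.80%. The counts in the erythroblasts were small (59, 35, 182 and 27 UMIs), and the part of doublets and of free RNA in them was not tested. Between the genotypes the 4 tested markers had a median of 0.47, which was −0.43 between the libraries numbered 1 and 1.05 between those numbered 2. Vcam1 gave 0.37 (−0.92 and 1.01 in the pairs) and C1qb 0.74 (−0.63 and 1.96, and −0.023 without the mixed cells). T and NK, platelet and basophil markers each took at most 0.0193% of the non-globin UMIs in any library, with Cd3e, Cd3g, Trbc2, Nkg7, Ccl5 and Klrd1 at 0 in TLR9-/- 2, Gp1bb and Treml1 at 0 in every library, and Cpa3, Fcer1a and Ms4a2 at 0 in both libraries numbered 2. Only 1 gene of each was tested (Ccl5 0.70, Gp9 −0.26 and Prss34 −0.79).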

How the data were processed

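The deposited matrices hold UMI counts per gene and cell, which the authors made with Cell Ranger 3.0.1 (per the matrix header), with no normalization; STAR and Seurat 2.3.4 are named in the submitters' processing notes. The 4 matrices held 40545 barcodes. Cells with 200 to 10000 genes and at most 10% mitochondrial UMIs were kept; the study's methods print this limit as 0.10%, read here as a fraction. Doublets were kept and no doublet caller was run. UMIs of all cells numbered 50204578, 63958243, 31210188 and 41384657, and those of the erythroblasts 929265, 181981, 2286801 and 303275. UMIs were summed per library and tested with edgeR 4.0.16 in R 4.3.3 (TMM, filterByExpr, quasi-likelihood test, Benjamini-Hochberg adjustment over all genes tested, threshold 0.05); the same model with a library term tested genotype by cell class. Class and bin levels are UMIs per 1000000 non-globin UMIs. Python 3.11.15, NumPy 2.4.6, pandas 2.3.3 and SciPy 1.17.1 gave the exact permutation tests over libraries and the exact intervals. Code was tested on simulated data. DESeq2 1.42.0, RLE scaling, no filter, other limits on cells, a replicate block and each library left out were alternatives.

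Named genes were the listed markers, the 4 globins, Tlr9, genes past the threshold and the 2 most abundant tested genes of each list; other genes, among them Glrx, Iqgap2, Ifitm6, Cish and Rtp4 and others shown along the globin share or between classes, were named after their values were seen. The values of 1 gene that this rule names are not reported here. Members and lists were chosen with earlier results of these data known. The labels name replicates and the study's methods give 2 mice per genotype, so p-values measure the spread between 2 mice per genotype. Promoters are from RefSeq (GRCm38.p6) and gene positions from GENCODE vM21.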

Additional observations from a re-analysis of the deposited data

Results flagged for a closer look

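For 9 genes, of which Hbb-bt and Lyz2 alone came from the naming rule and the others were named after their values were seen, the genotype effect in the globin-rich erythroblasts differed from that in all other cells in edgeR's interaction test. Camp, Ngp, Ltf and Lcn2, which encode proteins of neutrophil granules, differed by −3.20, −2.80, −3.001 and −2.35 on the log2 scale (edgeR adjusted p = 1.35e-06, 0.000115, 0.00345 and 0.00529). Without the cells that held markers of other types these differences were 0.34, 0.073, 0.023 and −1.29, each with an edgeR adjusted p of 1.00. Lyz2, the lysozyme of myeloid cells, differed by −1.91 (edgeR adjusted p = 0.0363) and Ifitm6 by −2.52 (edgeR adjusted p = 0.0275), against −0.41 and −1.43 without those cells. Glrx differed by 2.95, as given above, and Hbb-bt by 1.94, which is no finding because Hbb-bt helped to choose the cells. Iqgap2, a scaffold protein of the cytoskeleton, had 1, 0, 48 and 11 UMIs in the erythroblasts and differed by −4.93 (standard error 1.09, edgeR adjusted p = 0.0068), and it was also called without the mixed cells (edgeR adjusted p = 0.00143). It was not called against the early progenitors (edgeR adjusted p = 0.395), nor without TLR9-/- replicate 1, WT replicate 1 or WT replicate 2 (edgeR adjusted p = 0.251, 0.860 and 1.00), and DESeq2 gave it no adjusted p.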

How the results depend on the processing

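The genotype comparison called 2 genes as reported, with RLE scaling and without globins, and 3 with DESeq2. It called 18 without a filter on low counts, 10 at a globin limit of 10%, 0 at 40% (25 at an unadjusted p under 0.05), 0 with at least 1000 UMIs (106 unadjusted), 1 without mixed cells, and 8 (without WT replicate 2) to 181 (without TLR9-/- replicate 1) with a library left out, where the lone library is assumed to vary like the others. Gm35082 was at 11.04, 11.02 and 11.43 and Gm16867 at −10.86 and −11.06 where their calls were lost. With the library number as a replicate block 17 genes were called, Cish, Glrx, Rtp4, Camp and Iqgap2 among them, and Vcam1 turned to −0.043. Deviations of same-numbered libraries correlated at 0.305. With 2 libraries per genotype the value for libraries of different numbers, −0.305, is fixed as the mirror image and adds nothing. With 2 pairs and no label for the number the pairing is not established. The class comparison called 16 genes, 10 with DESeq2 (1 shared), 9 against early progenitors (3 shared), 5 without mixed cells (all shared; chosen after the data were seen), and 1 (without WT replicate 2) to 66 (without TLR9-/- replicate 1) with a library left out.

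With a library left out, the log2 share difference ranged from −2.09 to 0.39, mean globin from −2.65 to 0.80, the share with at least 50% globin from −7.26 to 0.343, and the share with at least 3 G2/M UMIs from −18.4 to 14.3 percentage points. The share with at least 50% globin turned to 0.0477 with at least 1000 UMIs, and the share with at least 3 G2/M UMIs to 1.04 thinned to 1000 UMIs and 0.359 unthinned. Of 643 values for 51 named genes, 575 kept direction and call and 50 reversed. At a globin limit of 10%, Hba-a1 was −0.059, Vamp5 −0.056, Isg15 −0.11, Jund −0.12, Unc93b1 0.24, Lyz2 0.58, Ly6c2 0.35 and Prss34 0.12; at 40%, Hba-a1 −0.23, Hbb-bs −0.022 and Hba-a2 −0.16. Without mixed cells, Hbq1a was 0.17, Pim1 0.057, S100a8 0.11, Lyz2 0.21 and C1qb −0.023. Jund was −0.012 unfiltered and −0.076 with at least 1000 UMIs. With a library left out, ranges that crossed 0 were −0.80 to 0.90 for Hba-a1, −0.20 to 0.71 for Hbb-bs, −0.74 to 1.12 for Hba-a2, −0.21 to 0.062 for Hbq1b, −0.40 to 0.10 for Hbq1a, −0.64 to 0.71 for Hemgn, −0.44 to 0.85 for E2f2, −0.46 to 1.504 for Bcl2l1, −0.85 to 0.49 for Pim1, −0.34 to 2.05 for Bpgm, −2.11 to 0.041 for Rrm2, −2.26 to 0.074 for Pcna, −0.85 to 0.50 for Birc5, −0.41 to 1.49 for Isg15, −0.071 to 0.11 for Jund, −0.41 to 1.68 for Hsp90aa1, −0.58 to 0.13 for Unc93b1, −2.22 to 0.34 for S100a9, −2.15 to 0.056 for S100a8, −1.42 to 1.66 for Vcam1, −0.58 to 1.85 for C1qb and −1.26 to 0.31 for Cd79a. The cause of these changes was not tested. Depth limits the erythroblasts of the libraries numbered 2 most, with 181981 and 303275 UMIs.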

Other observations

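Barcodes with fewer than 200 genes, which the definition leaves out, were nearly all rich in globin: 252 of 254, 196 of 213, 499 of 500 and 158 of 175, with a median globin share of 85.9%, 72.9%, 87.0% and 76.8%. Their beta per alpha globin ratios of 6.79, 1.45, 6.83 and 1.34 again lay high in number 1 and low in number 2. With them the share of globin-rich barcodes was 6.52%, 3.54%, 14.6% and 3.61%, and the log2 genotype difference was −0.60 (−1.17 and −0.03 in the pairs). This setting was chosen after the data were seen.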
